A study of Mus musculus with 8 samples.

Results

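Nanog and the genes beside it on mouse chromosome 6 form a cluster of 5 genes whose H3K27ac peaks were compared between cells given 4-hydroxytamoxifen (4OHT) and untreated cells. The members were chosen by name as Nanog, Dppa3, Gdf3, Apobec1 and Slc2a3, which are 5 of the 21887 protein-coding genes in the RefSeq table of GRCm38.p6 (mm10 coordinates). Each locus is the gene interval with 50 kb added on either side. Because these windows overlap, they were also joined into a single domain of 324572 bp, chr6:122527792-122852363. The domain also holds or touches 4 other protein-coding genes, among them Mfap5, Foxj2 and C3ar1, and 7 genes of other types, of which 5 are pseudogenes.

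The study profiled H3K27ac, acetylation of lysine 27 of histone H3, by chromatin immunoprecipitation and sequencing in E14tg2a cells, a mouse embryonic stem cell line of 129SV background. The treated group received 250 nM 4OHT for 2 h, and the untreated group received none. Both groups stably carried cRAF-ErT2, a RAF kinase fused to a tamoxifen-responsive oestrogen receptor domain, through which 4OHT activates the MAP kinase ERK. Both were grown with serum, LIF and 2 uM Chir99021 (a GSK3 inhibitor), then, for the last 24 h before treatment, with serum, LIF and 250 nM PD173074 (an FGF receptor inhibitor). Clones a and b were profiled in each group, giving 2 treated and 2 untreated peak lists. The labels name no vehicle control, so an effect of 4OHT itself and one of ERK cannot be told apart. They do not give the promoter that drives cRAF-ErT2.

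H3K27ac marks active promoters and enhancers, and long stretches of it with many peaks are typical of genes that define a cell's identity. NANOG is a homeodomain transcription factor of the naive pluripotency network. In embryonic stem cells ERK signalling favours exit from that state, and Nanog is known to vary between single cells grown in serum. Its neighbours have other roles: GDF3 is a secreted TGF-beta family ligand, DPPA3 (also called Stella) protects DNA methylation of the early embryo, SLC2A3 is the glucose transporter GLUT3, and APOBEC1 is a cytidine deaminase that edits RNA.

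Promoter sequences were available from RefSeq (GRCm38.p6) for 2 of the 5 members, Nanog and Apobec1. They are shown because the start site of Nanog lay between the 2 peaks that flank it and the width of that interval differed between the groups, as described further on. Each line gives 250 bases before the start site and 50 from it, read 5′ to 3′ on the gene's own strand, with the octamer core bound by POU factors such as OCT4 (ATGCAAA or its reverse complement) in capitals.
Nanog, chr6:122707239-122707538, plus strand: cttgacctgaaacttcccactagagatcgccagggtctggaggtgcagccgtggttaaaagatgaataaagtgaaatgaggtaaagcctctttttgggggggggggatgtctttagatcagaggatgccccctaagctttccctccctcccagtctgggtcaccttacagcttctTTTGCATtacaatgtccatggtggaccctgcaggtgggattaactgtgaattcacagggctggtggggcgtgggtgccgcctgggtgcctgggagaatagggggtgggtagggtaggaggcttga
Apobec1, chr6:122602395-122602694, minus strand: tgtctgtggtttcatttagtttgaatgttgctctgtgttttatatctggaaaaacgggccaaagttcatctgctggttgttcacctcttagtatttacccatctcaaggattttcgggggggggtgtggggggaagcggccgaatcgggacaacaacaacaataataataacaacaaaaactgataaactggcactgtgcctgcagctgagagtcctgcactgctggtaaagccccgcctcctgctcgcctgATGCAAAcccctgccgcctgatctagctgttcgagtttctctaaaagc

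The Nanog match is a reverse complement whose first base lies at position -75. In Apobec1 the match is as spelled and begins at position 3. Positions count the start site as 1 and the base before it as -1. This core stood in 1520 of the 32851 promoters of the same length in the table (4.63%). A TATAAA box was present as its reverse complement in the Apobec1 window, where it begins at position -212, and in 13.6% of all promoters. No match was present in either window for the letters ACAATGG (Sox factors; 3.66% of promoters), AAGGTCA (ESRRB; 4.72%), CCGGAAG (ETS factors; 8.86%), TGANTCA (AP-1; 7.81%) or GGGCGG (KLF and SP factors; 35.7%). Both strands were searched for exact letters only, and no match overlapped another. A site with other spelling is thus missed. Shortly after the capitals the Nanog sequence reads acaatgt, which differs from the Sox letters in the last base alone. The absence of an exact match therefore does not show that a Sox site is lacking there. A match describes letters and not a bound site.

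Across the 4 libraries the lists held 59170 to 63276 peaks and covered 50.4 to 53.1 Mb. Read depth is not known from peak lists, and a missing peak does not show that the mark was absent. Of 9 loci of ERK feedback genes, 6 were called higher in treated cells: Spry4, Spry2, Dusp4, Dusp5, Etv4 and Spred1 (4.00% of all loci were; limma, described below). Embryonic stem cell markers were covered at all 7 loci, with a summed length of 171 to 187 kb in treated and 157 to 169 kb in untreated cells. Of these 0 were called (limma, 1 at an unadjusted p under 0.05). With clone as a factor 3 were called higher, against 22.7% of all loci in that fit. Primitive endoderm markers, 6 loci, summed to 2.64 and 3.69 kb in treated and 1.99 and 3.70 kb in untreated clones a and b, with Foxa2 at 0. Fibroblast markers (7 loci, Postn at 0) summed to 13.9 and 16.98 kb in treated and 11.6 and 12.7 kb in untreated clones. Of these, Twist1 was covered only in treated lists and Col3a1 had 2.95 and 2.87 kb in treated and 4.28 and 3.97 kb in untreated clones. Among the fibroblast markers 0 were called (limma, 2 at an unadjusted p under 0.05). With clone as a factor 1 was called higher and 1 lower, against 22.7% and 15.5% of all loci. Germ cell markers (4 loci) summed to 10.0 and 12.2 kb in treated and 9.31 and 10.2 kb in untreated clones. Macrophage markers (4 loci, Adgre1 at 0) summed to 48.9 and 46.4 kb in treated and 42.6 and 40.4 kb in untreated clones, nearly all at Cd68. Ptprc, with 2.91 and 2.82 kb in treated and 0.224 and 0 kb in untreated clones, was called higher (limma), as were 4.00% of all loci. It reached the minimum length for testing through the treated lists, so its call carries little weight. The fit with clone as a factor called 2 of the 4 higher, as it did 22.7% of all loci. These windows include neighbouring genes, and the part of other cell types in the results was not tested.

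The domain as a whole carried long H3K27ac cover in every library, with less of it in the treated library of each clone and with overlapping groups. Peaks covered 54.2 and 47.7 kb of it in treated clones a and b, against 63.4 and 51.8 kb in untreated clones a and b. Treated clone a lay above untreated clone b, so the groups overlapped, although within each clone the treated library was the shorter. The difference, treated minus untreated, was -9.15 kb in clone a and -4.08 kb in clone b. The means were 50.96 ± 4.64 kb in treated and 57.57 ± 8.22 kb in untreated cells (SD, n = 2 each; exact permutation test, two-sided, p = 0.667). In bulk chromatin, fewer cells with the mark and less mark per cell cannot be told apart.

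Peak number did not overlap between the groups in the full lists. The domain held 38 and 32 peaks in treated clones a and b, against 41 and 42 in untreated clones a and b. With 2 libraries against 2 the exact permutation test cannot go below 0.333, which is the p reached here. With lists of equal length the counts were 38 and 32 in treated clones a and b, against 40 and 38 in untreated clones a and b, and the groups overlapped (exact permutation test, p = 0.667). With windows of 10 kb they were 26 and 24 in treated clones a and b, against 29 and 26 in untreated clones a and b, and overlapped as well. The median score percentile of the domain peaks within their list was 47.5 and 52.1 in treated clones a and b, against 48.6 and 45.7 in untreated clones a and b. The score is the authors' own value and ranks peaks within a list only. Peaks above the 90th percentile numbered 8 and 7 in treated clones a and b, against 7 and 8 in untreated clones a and b. As a share of all peak cover in the genome, the domain held 0.105% and 0.0940% in treated clones a and b, against 0.119% and 0.103% in untreated clones a and b.

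**Figure D1:**
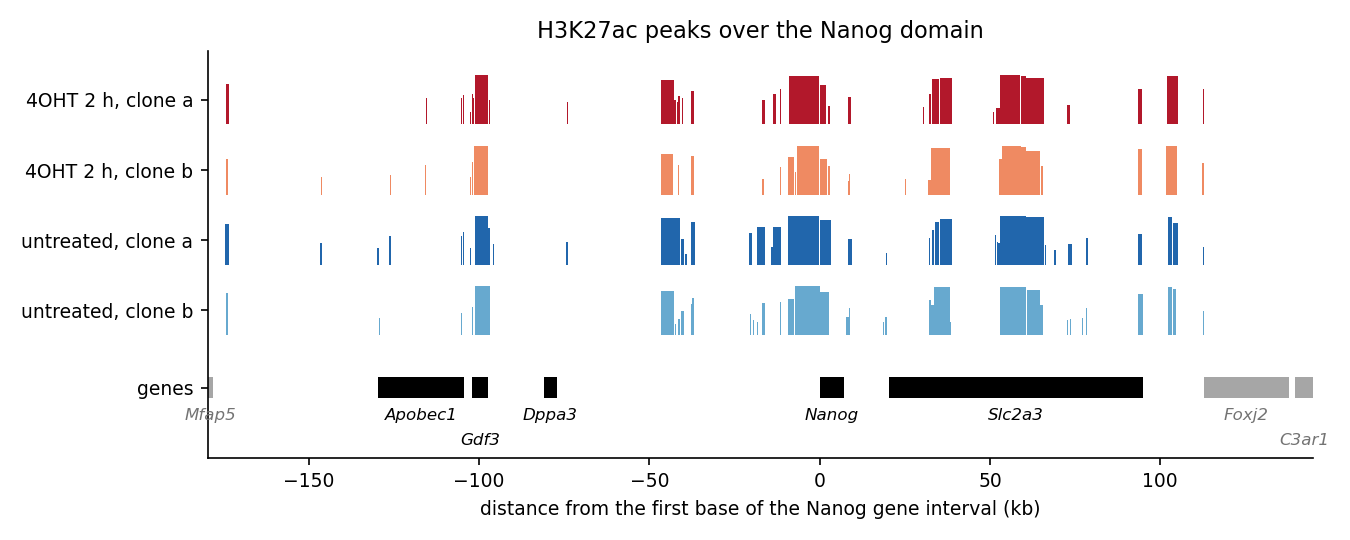
H3K27ac peaks of the 4 libraries (rows) by distance in kb from the first base of the Nanog gene interval, with bar height rising with the score percentile of a peak within its own list. Black boxes are the 5 members and grey boxes are 3 other protein-coding genes; the tall blocks at Gdf3, before Nanog and within Slc2a3 recur in all rows, and the Dppa3 interval has no peak in any row.

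The Nanog locus was among the most heavily covered in the genome, and its cover was shorter in treated cells within both clones. Peaks covered 32.5 and 28.1 kb of the Nanog window in treated clones a and b, against 38.9 and 32.4 kb in untreated clones a and b. The higher treated value (32.50 kb, clone a) lay just above the lower untreated one (32.43 kb, clone b), so the groups overlapped. The log2 change, on the scale log2(covered bp + 500), was -0.23 (SE 0.14). It did not pass the test fitted with limma over 16049 gene loci (adjusted p = 0.336). Of all loci ranked by covered length within a library, Nanog had a percentile of 98.5 and 98.2 in treated clones a and b, against 99.3 and 99.1 in untreated clones a and b.

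Slc2a3 had the longest cover of the 5 members in all 4 libraries. It is also the longest gene of the 5, at 74.6 kb against 7.145 kb for Nanog. Window length follows gene length, and covered length was not scaled to it. The Slc2a3 window held 40.2 and 36.7 kb of peaks in treated clones a and b, against 46.4 and 39.6 kb in untreated clones a and b. Treated clone a again lay above untreated clone b (log2 change -0.16, SE 0.12, adjusted p = 0.449, limma). The Nanog and Slc2a3 windows share 86.8 kb, which is 81.0% of the Nanog window and 49.7% of the Slc2a3 window. The results of these 2 loci are thus not separate.

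Dppa3 came next by covered length, with 12.9 and 10.3 kb in treated clones a and b, against 15.3 and 11.7 kb in untreated clones a and b. Treated clone a exceeded untreated clone b (log2 change -0.20, SE 0.18, adjusted p = 0.519, limma). None of that cover lay in the Dppa3 gene itself, as described below for the gene intervals.

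Apobec1 and Gdf3 were the least covered members, and their clones moved in opposite directions. The Apobec1 window held 7.79 and 6.31 kb in treated clones a and b, against 9.05 and 5.86 kb in untreated clones a and b (log2 change -0.05, SE 0.23, adjusted p = 0.907, limma). For Gdf3 the lengths were 6.60 and 5.86 kb in treated clones a and b, against 7.81 and 5.33 kb in untreated clones a and b (log2 change -0.05, SE 0.20, adjusted p = 0.898, limma). In both windows the untreated values lay outside the treated ones on either side. The Apobec1 window holds 93.3% of the Gdf3 window. By mean covered length the order was Slc2a3, Nanog, Dppa3, Apobec1 and Gdf3. The ranges of Apobec1 and Gdf3 overlapped, those of Dppa3 and Apobec1 did not, and those of Slc2a3 and Nanog overlapped through untreated clone a at Nanog.

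Thus 0 of the 5 members were called, against 4.00% of the 16049 gene loci called higher and 2.87% called lower at an adjusted p of 0.05 (limma). No member had an unadjusted p under 0.05, against 4464 of all loci. The 5 log2 changes ran from -0.23 to -0.05 with a median of -0.16, and the median of all loci tested was 0.08. All 5 groups of values overlapped, while both treated libraries were lower than both untreated ones at 21.7% of loci and higher at 37.1%. The labels give the same clone letters in both groups but do not say whether the clones are independent lines or which libraries shared a culture. Taking the letters as pairs, a limma fit with clone as a factor (replicate block) called Nanog lower (adjusted p = 0.00352) and Slc2a3 lower (adjusted p = 0.0126). It did not call Dppa3 (adjusted p = 0.0705), Apobec1 (0.746) or Gdf3 (0.769). That fit called 15.5% of all loci lower and 22.7% higher. Its 2 calls among the members rest on largely the same bases.

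**Figure D2:**
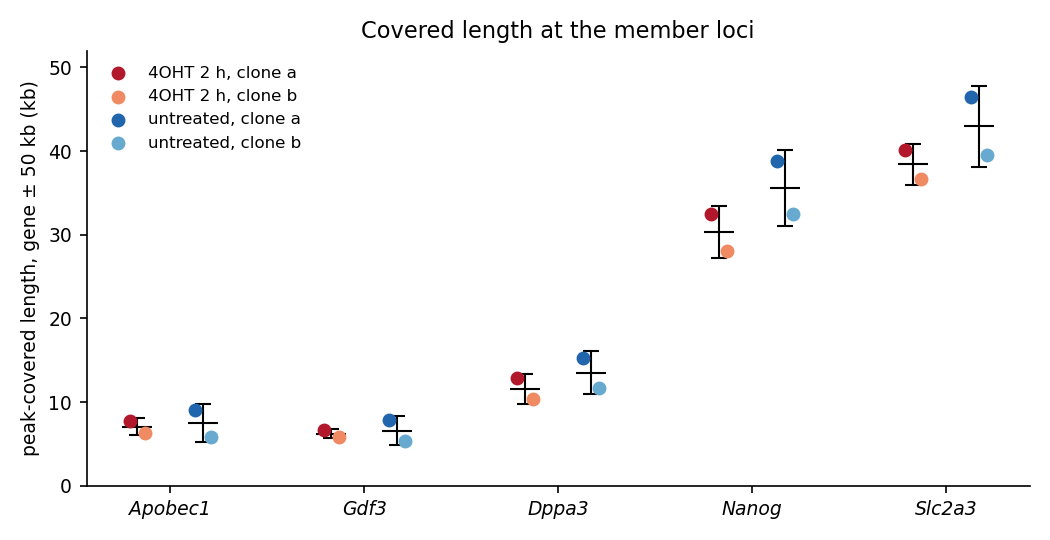
Peak-covered length in kb within 50 kb of each member, one point per library, with the treated libraries on the left and the untreated ones on the right of each pair. Horizontal bars are means and whiskers SD (n = 2 clones); clone a exceeds clone b in every pair, and at Nanog treated clone a (32.5 kb) sits level with untreated clone b (32.4 kb).

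**Figure D3:**
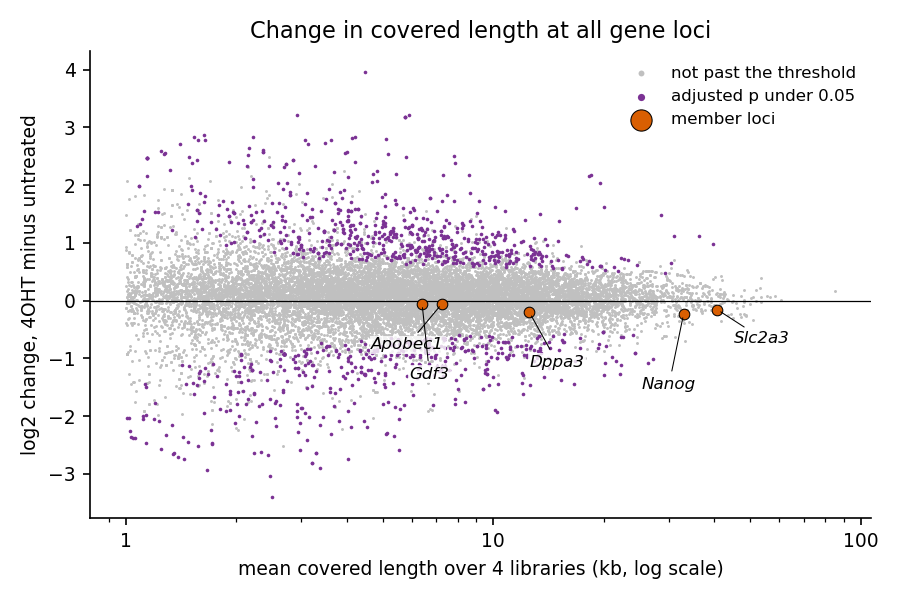
Log2 change in covered length (4OHT minus untreated, log2(covered bp + 500)) against mean covered length on a log axis for the 16049 gene loci tested, with loci past an adjusted p of 0.05 in purple and the 5 members in orange. The members lie between -0.23 and -0.05, and Nanog and Slc2a3 sit at the right, among the longest covers.

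To count each base once, the domain was cut at the ends of protein-coding genes into gene intervals and the stretches between them, and the same fit was run over 11434 such segments of the genome. This division was added after the windows were seen to overlap. Of the 15 segments wholly inside the domain, 7 had enough cover to be tested and 0 were called, against 1.51% of segments called higher and 1.59% called lower (limma). An unadjusted p under 0.05 was found for 2 of the 7 and for 2810 of the 11434. Among the 7, both treated libraries were lower in 3 and higher in 2, while over the genome these patterns held for 25.4% and 30.3% of segments tested.

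The stretch between Dppa3 and Nanog, 77.2 kb long, carried -4.96 kb of the -6.61 kb mean difference of the domain. Peaks covered 17.4 and 14.2 kb of it in treated clones a and b, against 23.9 and 17.6 kb in untreated clones a and b. Both treated values lay below both untreated ones (log2 change -0.37, SE 0.21, adjusted p = 0.362, limma). The fit with clone as a factor (replicate block) called it lower (adjusted p = 0.0412), as it did 11.3% of segments, with 9.03% called higher.

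Over the Nanog gene interval itself 2.37 and 2.38 kb were covered in treated clones a and b, against 3.24 and 2.83 kb in untreated clones a and b. That is 33.1% and 33.3% of the gene in treated cells and 45.3% and 39.6% in untreated cells, with no overlap (log2 change -0.30, SE 0.13, adjusted p = 0.266, limma). Between Nanog and Slc2a3 the cover was 0.750 and 0.554 kb in treated clones a and b, against 1.30 and 1.71 kb in untreated clones a and b. The groups did not overlap there either (log2 change -0.80, SE 0.19, unadjusted p = 0.0136, adjusted p = 0.109, limma).

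Toward the Foxj2 side the values were closer or reversed in sign. Within Slc2a3 22.6 and 20.3 kb were covered in treated clones a and b, against 23.5 and 21.2 kb in untreated clones a and b, and the groups overlapped (log2 change -0.06, SE 0.12, adjusted p = 0.819, limma). Between Slc2a3 and Foxj2, the gene of a forkhead transcription factor, both treated values were the higher, at 3.44 and 3.69 kb in treated clones a and b, against 2.77 and 2.63 kb in untreated clones a and b (log2 change 0.35, SE 0.12, adjusted p = 0.199, limma). The difference between the segments on either side of Slc2a3 was not tested.

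Gdf3 and Dppa3, neighbours 16.3 kb apart, stood at opposite extremes of cover. The short Gdf3 interval was covered almost throughout, over 92.4% and 91.4% of its bases in treated clones a and b, against 83.1% and 87.5% in untreated clones a and b. Both treated values were the higher (log2 change 0.10, SE 0.12, adjusted p = 0.684, limma). The Dppa3 interval held 0 kb of peaks in all 4 libraries. The nearest peak lay 3002 bp from the gene in treated clone a (225 bp wide) and 16.3 kb away in treated clone b, where it is the Gdf3 peak, against 2749 bp in untreated clone a (509 bp wide) and 10.5 kb in untreated clone b (228 bp wide). Apobec1, a longer gene, had 1.35 and 0.856 kb in treated clones a and b, against 1.48 and 0.523 kb in untreated clones a and b (log2 change 0.16, SE 0.40, adjusted p = 0.860, limma).

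Merging the 4 lists gave 45 union regions in the domain, of which 16 were called in all 4 libraries. These 16 held 93.1% and 95.6% of the domain's peak cover in treated clones a and b, against 86.1% and 91.5% in untreated clones a and b. In length they gave 50.5 and 45.6 kb in treated clones a and b, against 54.6 and 47.3 kb in untreated clones a and b. The other regions added 3.76 and 2.08 kb in treated clones a and b, against 8.79 and 4.41 kb in untreated clones a and b. Both treated values were the lower in the second class only.

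The strongest elements were shared by all libraries. The peak over Gdf3, chr6:122605811-122610698, had a score percentile between 99.8 and 99.96 in the 4 libraries. Its covered lengths were 4.48 and 4.02 kb in treated clones a and b, against 4.41 and 4.31 kb in untreated clones a and b, and they overlapped. The element just before Nanog, chr6:122698067-122707434, had a cover of 8.79 and 8.71 kb in treated clones a and b, against 9.35 and 9.13 kb in untreated clones a and b. The score percentile of its best peak was 98.6 and 99.7 in treated clones a and b, against 99.1 and 99.9 in untreated clones a and b. Both treated covered lengths were the shorter, by little (log2 change -0.08, SE 0.04, adjusted p = 0.424, limma on log2(covered bp + 100) over 46717 regions).

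Within Slc2a3 the largest element lay 56.1 kb from the Nanog start. Its cover was 8.69 and 7.88 kb in treated clones a and b, against 8.51 and 7.66 kb in untreated clones a and b. Another, 35.7 kb from the Nanog start, had a cover of 5.73 and 5.48 kb in treated clones a and b. In untreated clones a and b it was 5.43 and 5.67 kb. Both sets of values overlapped, with log2 changes of 0.03 and 0.02. Neither element separated the groups.

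By covered length, 4 of the 16 shared regions were shorter in both treated libraries than in both untreated ones and 2 were longer. Of the 30131 such regions in the genome, 21.5% were shorter and 27.3% longer. All 4 shorter ones lay between 17.3 kb before and 8.65 kb after the Nanog start. The region 17.3 kb before it had a cover of 0.945 and 0.521 kb in treated clones a and b, against 2.56 and 1.11 kb in untreated clones a and b (log2 change -1.15, SE 0.53, adjusted p = 0.348, limma). Its score percentile was 36.8 and 13.3 in treated clones a and b, against 70.3 and 56.2 in untreated clones a and b. The region over the first part of the Nanog gene had a cover of 2.37 and 2.38 kb in treated clones a and b. In untreated clones a and b it was 3.24 and 2.83 kb (log2 change -0.34, SE 0.10, adjusted p = 0.162, limma). This region holds all the cover of the Nanog gene interval given above, so the 2 results are the same bases fitted with different pseudocounts. Each treated list held this region as 2 peaks and each untreated list as 1, and the gap between peaks is not counted. The last peak ended at base 122710579 in treated clone a, beyond base 122710359 in untreated clone b, so the outer ends did not separate the groups. The score percentile of the region's best peak was 75.2 and 64.4 in treated clones a and b, against 88.2 and 83.1 in untreated clones a and b.

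The clearest of the longer regions lay 103 kb after the Nanog start, between Slc2a3 and Foxj2. It had a cover of 3.21 and 3.10 kb in treated clones a and b, against 2.55 and 2.23 kb in untreated clones a and b. Each treated list held it as 1 peak and each untreated list as 2. Its score percentile was 98.8 and 99.5 in treated clones a and b, against 96.5 and 98.0 in untreated clones a and b (log2 change 0.39, SE 0.10, adjusted p = 0.126, limma). Of the 16 regions called in all 4 libraries 0 passed the test in the domain (limma; 2 at an unadjusted p under 0.05). Over all 46717 regions tested, 5.40% were called higher and 5.55% lower, but when the fit was limited to the 30131 regions called in all 4 libraries it called 0 (5145 at an unadjusted p under 0.05). With clone as a factor (replicate block) limma called 0 of the 46717, although 13199 had an unadjusted p under 0.05.

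**Figure D4:**
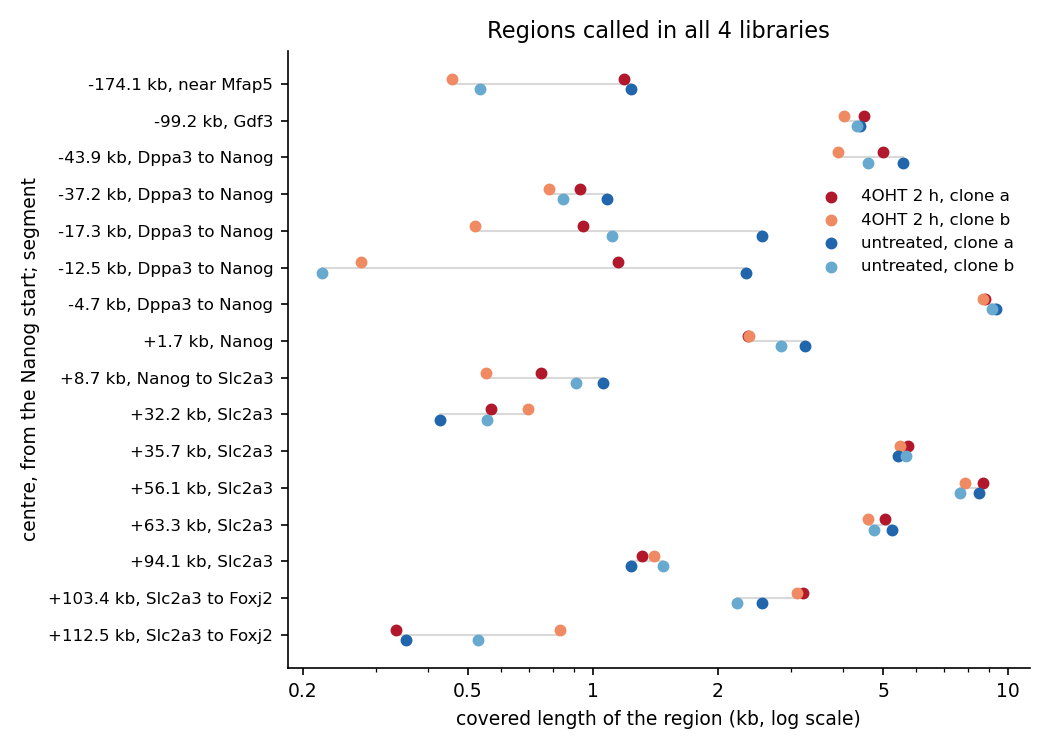
Covered length in kb (log axis) of the 16 regions called in all 4 libraries, ordered by the distance of their centre from the Nanog start, with treated libraries above untreated ones in each row. The rows at -17.3, -4.7, +1.7 and +8.7 kb have both treated points left of both untreated ones, and those at +32.2 and +103.4 kb the reverse.

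Few regions were called in both libraries of 1 group alone. Gained regions, called in both treated and neither untreated library, numbered 1 of the 45, against 6.20% of the 82792 union regions of the genome. Lost regions, the opposite, numbered 5 of the 45, against 6.26%. The gained region lay inside Apobec1, chr6:122591539-122592145, with 385 and 419 bp in treated clones a and b and 0 bp in both untreated clones. Its score percentile was 41.5 and 48.9 in treated clones a and b.

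Among the 5 lost regions, chr6:122686832-122687487 lay 20.3 kb before the Nanog start. It had 0 bp in both treated clones, against 656 and 348 bp in clones a and b of untreated cells. Another lay inside Slc2a3, chr6:122785625-122786314, with 0 bp in both treated clones, against 634 and 386 bp in clones a and b of untreated cells. The score percentiles of these 2 were 53.87 and 27.08, and 43.37 and 41.45, in untreated clones a and b. The other 3 were shorter, with a mean under 200 bp over the 4 libraries. They ranked low in the untreated lists, with score percentiles from 0.07 to 18.21. No test is given for gained or lost regions, since a region with peaks in 1 group alone reaches the minimum length through that group, and its direction is fixed by how it was chosen.

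Taken clone by clone, the domain had 5 regions called only in the treated library and 12 only in the untreated one for clone a. The numbers for clone b were 6 and 12. Over the genome they were 13289 and 14912 for clone a, and 15582 and 14839 for clone b. Regions called in exactly 1 library numbered 14 and those called in 2 or 3 numbered 10 and 5. In the domain, peak lists of the same clone shared a Jaccard index over covered bases of 0.757 (clone a) and 0.772 (clone b), against 0.755 between treated and 0.713 between untreated clones. Over the genome the same-clone indices were 0.598 and 0.575, below the 0.644 within each treatment.

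At the Nanog start the peaks upstream and downstream stood farther apart in treated cells. This feature was chosen after its values were seen. The start site at base 122707489 lay in a gap of 307 and 214 bp in treated clones a and b, against 132 and 96 bp in clones a and b of untreated cells, and the groups did not overlap. The upstream peak ended 240 and 73 bp before the start in treated clones a and b, against 76 and 55 bp in clones a and b of untreated cells. The downstream peak began 68 and 142 bp after it in treated clones a and b, against 57 and 42 bp in clones a and b of untreated cells. In treated clone a the gap thus widened mainly upstream and in treated clone b downstream, each set against the same clone untreated.

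The table's other Nanog start, base 122707565, did not lie in a gap in all 4 libraries. Of all start sites, 936 lay in a gap of at most 1000 bp between peaks in every library, with a median width of 239 and 260 bp in treated clones a and b, against 287.5 and 282 bp in clones a and b of untreated cells. Both treated gaps were wider than both untreated ones at 6.30% of them, Nanog included, and narrower at 39.7%. The octamer core shown in the Nanog sequence lay outside peaks in treated clone a and partly inside the upstream peak in treated clone b. In untreated clone a it lay outside peaks and in untreated clone b wholly inside the upstream peak, so its place followed neither group. At Apobec1 the window shown held 86 and 0 bp of peaks in treated clones a and b, against 92 and 0 bp in clones a and b of untreated cells.

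**Figure D5:**
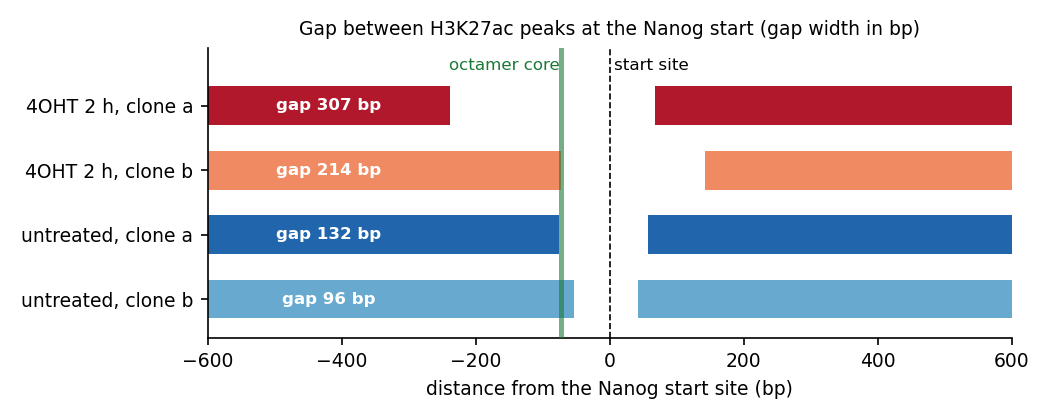
Peaks (filled bars) on either side of the Nanog start site in the 4 libraries, by distance in bp from the start, with the gap width printed on each row and the octamer core as a green band. Gaps of 307 and 214 bp in treated clones a and b exceed those of 132 and 96 bp in clones a and b of untreated cells.

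Genes that work with Nanog were set beside it from a list of 22 pluripotency loci, of which 0 were called in either direction (limma without clone; 4 at an unadjusted p under 0.05), against 4.00% higher and 2.87% lower over all loci. Their median log2 change was -0.05, against 0.08 over all loci. With clone as a factor (replicate block) 5 were called higher and 2 lower, against 22.7% higher and 15.5% lower over all loci in that fit. The largest changes were at Stat3, which transmits the LIF signal, with 11.7 and 13.7 kb in treated clones a and b, against 3.09 and 6.32 kb in untreated clones a and b (log2 change 1.41, adjusted p = 0.0615, limma; 0.000676 with clone as a factor). Prdm14, a regulator that holds cells in the naive state, had 16.9 and 13.6 kb in treated clones a and b, against 29.8 and 23.0 kb in untreated clones a and b (log2 change -0.77, adjusted p = 0.0651, limma; 0.000221 with clone as a factor). Gbx2, a LIF target, had 1.89 and 2.06 kb in treated clones a and b, against 0.433 and 2.38 kb in untreated clones a and b, and the groups overlapped.

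Loci of the Nodal and activin pathway, to which GDF3 belongs, held calls in both directions. Of 17 loci 15 were tested, 1 was called higher and 3 lower (4.00% higher and 2.87% lower over all loci), and the list's median was -0.07. Lefty1, an inhibitor of NODAL, had 12.6 and 14.9 kb in treated clones a and b, against 33.2 and 28.0 kb in untreated clones a and b (log2 change -1.12, SE 0.14, adjusted p = 0.0256, limma). Lefty2, its paralog, had 15.03 and 18.4 kb in treated clones a and b, against 39.1 and 33.1 kb in untreated clones a and b (adjusted p = 0.0275, limma). The windows of these 2 genes overlap, so their calls share bases. Skil, which encodes the SMAD repressor SnoN, was the locus called higher, with 14.8 and 12.9 kb in treated clones a and b, against 8.71 and 8.65 kb in untreated clones a and b (adjusted p = 0.0469, limma). The locus of the ligand Nodal was not called, with 15.4 and 12.3 kb in treated clones a and b, against 16.5 and 12.7 kb in untreated clones a and b. All calls at list and marker loci in the fit without clone were lost when treated clone a, treated clone b or untreated clone a was left out, since limma then called 0 of all loci, with 3159, 2980 and 3202 at an unadjusted p under 0.05.

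For Slc2a3 the list was 14 loci of glucose uptake and glycolysis, of which 1 was called higher and 0 lower (limma), with a median log2 change of 0.21. Over all loci the shares were 4.00% and 2.87%. With clone as a factor 4 were called higher and 1 lower, against 22.7% and 15.5% of all loci. The call was at Pdk1, the gene of a kinase that restrains pyruvate dehydrogenase in mitochondria. Its locus had 17.6 and 16.7 kb in treated clones a and b, against 9.86 and 9.26 kb in untreated clones a and b (log2 change 0.81, SE 0.11, adjusted p = 0.0288, limma). The other 2 of the largest changes were at the enzymes Pgk1 (log2 change 0.38, adjusted p = 0.180, limma) and Aldoa (0.36, 0.1505, and 0.0159 with clone as a factor). Slc2a1, the gene of the transporter GLUT1, had 23.3 and 22.3 kb in treated clones a and b, against 18.2 and 18.3 kb in untreated clones a and b (log2 change 0.31, adjusted p = 0.126, limma; 0.00451 with clone as a factor). Slc2a3, with a log2 change of -0.16, lay below the list's median.

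For Apobec1 the list was 6 loci of cytidine deaminases and RNA-editing cofactors, of which 5 were tested and 0 called (limma; 2 at an unadjusted p under 0.05; median -0.03). With clone as a factor 2 were called higher and 1 lower, against 22.7% and 15.5% of all loci. Apobec3, a deaminase that restricts retroviruses, had 51.2 and 44.6 kb in treated clones a and b, against 38.3 and 32.8 kb in untreated clones a and b (log2 change 0.42, adjusted p = 0.108, limma; 0.000221 with clone as a factor). Apobec2 had 5.04 and 6.17 kb in treated clones a and b, against 6.52 and 8.92 kb in untreated clones a and b, with no overlap (adjusted p = 0.236, limma; 0.0186 with clone as a factor). Rbm47, a cofactor of APOBEC1, had 14.2 and 16.2 kb in treated clones a and b, against 10.5 and 12.6 kb in untreated clones a and b (adjusted p = 0.166, limma; 0.00596 with clone as a factor).

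The loci with a pattern most like Nanog, by Euclidean distance over the 4 log2(covered bp + 500) values, were Fntb on chromosome 12 (distance 0.128), Pawr on chromosome 10 (0.130) and Zbtb24 on chromosome 10 (0.145). Zbtb24, the nearest of them in size of change, had 31.1 and 30.07 kb in treated clones a and b, against 37.1 and 33.9 kb in untreated clones a and b (log2 change -0.21, adjusted p = 0.249, limma). Loci of the same length and the same clone difference fall close by this measure.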

How the data were processed

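The deposited file of each H3K27ac library lists peak intervals, each with a score that is the authors' own value on a scale the sources used here do not give; it served only to rank or filter peaks within a list. Per the submitters' processing notes, Bowtie2, bedtools and MACS2 were used with the mm10 build; their versions and thresholds, and how inputs were used, are not given in the sources read here. Peaks were called per library. The 4 inputs were not analysed here.

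Covered bp per gene window (gene interval and 50 kb each side) was summed per library, and loci with a mean of at least 1000 bp were tested with limma 3.58.1 in R 4.3.3 on log2(covered bp + 500), with a mean-dependent prior variance and Benjamini-Hochberg adjustment at 0.05 over all loci. Segments between gene ends were tested likewise, and union regions (peaks merged at 1 bp overlap, mean of at least 200 bp) on log2(covered bp + 100). The locus and region fits without clone were tested on simulated data with no clone effect and with planted changes larger than those of the members. The segment fit and the fits with clone as a factor were not tested in this way. Clone was left out of the main fit. The clone letters come from the labels, which do not say whether clones are independent lines or which libraries shared a culture; they were taken to pair the treatments. As a check, over 16049 loci, the clone deviations from the mean of each group correlated at 0.611 between treated and untreated cells. With 2 clones per group, p-values of the fits without clone set the treatment difference against the spread between these clones. Those with clone as a factor rest instead on how alike the treatment difference was in the 2 clones. In both, limma moderated the variance of each locus, segment or region by a prior taken over all those tested.

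The members were given, and the lists and tests were chosen with earlier results of these data known. Named genes were the members, their neighbours, list loci that were called and up to 3 list loci with the largest change, and the 3 loci most like Nanog. Some further list and marker loci were named for their role once values had been seen. Other settings tried were windows of 10 and 100 kb, pseudocounts, no filter on length, scaling to total covered length, the upper 50% of peaks by score, equal list lengths, the top 20000 peaks, regions merged within 1000 bp, clone as a factor and leaving out each library; the gene interval alone and all settings of the segments were added after seeing the data. Intervals of the gene table carry no strand. Some loci that the rule names are not reported here.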

Additional observations from a re-analysis of the deposited data

Results flagged for a closer look

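At 3 measures the clones moved in opposite directions after 4OHT, and the difference between clones was not tested. The covered length of the Apobec1 locus (gene and 50 kb each side) was -1.26 kb, treated minus untreated, in clone a and 0.45 kb in clone b. The Gdf3 locus, whose window lies mostly inside that of Apobec1, gave -1.21 kb in clone a and 0.525 kb in clone b. Over the Apobec1 gene interval alone the difference was -0.128 kb in clone a and 0.333 kb in clone b. The shared bases mean that these are not separate observations.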

How the results depend on the processing

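Read depth is unknown, which limits every statement about a missing peak. Domain cover and domain peak count stayed lower in treated cells under every alternative run: leaving out each library gave differences from -12.43 to -0.795 kb and from -9.5 to -3.5 peaks, and none could pass an exact test. The Nanog, Slc2a3 and Dppa3 loci kept a negative log2 change under every alternative that gave a value (Dppa3 was under the length filter for the gene alone and at 10 kb), from -0.357 to -0.100 for Nanog, -0.271 to -0.0426 for Slc2a3 and -0.393 to -0.0160 for Dppa3 when a library was left out; the lowest came without untreated clone b and the value nearest 0 without untreated clone a. Clone as a factor (replicate block, paired) called Nanog (log2 change -0.229, adjusted p = 0.00352) and Slc2a3 (-0.157, 0.0126) and changed no other member's call. The sign reversed for Apobec1 with the gene interval alone (0.155), at 10 kb (0.0160), without treated clone b (0.0889) and without untreated clone a (0.240; range -0.345 to 0.240), and for Gdf3 with the gene interval alone (0.0961), without treated clone b (0.0285) and without untreated clone a (0.2045; range -0.308 to 0.2045). It reversed too for the Apobec1 segment without treated clone a (-0.0691) and without untreated clone b (-0.321; range -0.321 to 0.631), and for the Slc2a3 segment with the upper 50% by score (0.0077), the top 20000 peaks (0.0370), without treated clone b (0.0180) and without untreated clone a (0.0147; range -0.134 to 0.0180). The cause was not tested.

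Gene loci called higher and lower numbered 129 and 101 with the gene interval alone, 393 and 278 at 10 kb, 179 and 139 with the upper 50% by score, 3639 and 2486 with clone as a factor, and 0 and 0 with the top 20000 peaks (limma; 2883 at an unadjusted p under 0.05). Without a library they ran from 0 to 246 and from 0 to 90. Segments gave 0 and 0 at a pseudocount of 100 bp (2738 unadjusted), 283 and 306 scaled to covered length, 77 and 86 with the upper 50% by score, 1033 and 1289 with clone as a factor, and 0 and 0 without any library (1826 to 2107 unadjusted). Regions gave 875 and 870 at a pseudocount of 500 bp, 626 and 661 merged within 1000 bp, 0 and 0 among those in all 4 libraries (5145 unadjusted), 0 and 0 with clone as a factor, and from 184 to 2848 and from 206 to 2920 without a library. In the domain, where the 2 calls of the full fit are regions with peaks in 1 group alone, no region was called higher or lower (0 and 0) under the first 4 of these, 2 were called lower after scaling, and 0 to 1 higher and 0 to 2 lower without a library. Gained and lost regions numbered 2569 and 2508 merged within 1000 bp, 2581 and 2517 with the upper 50% by score, 1859 and 1641 with the top 20000 peaks, and 7101 to 13200 and 7171 to 12515 without a library. In the domain they numbered 2 gained when a peak had to cover 50% of a region, 3 lost when merged, 2 and 1 with the upper 50% by score, 0 and 0 with the top 20000 peaks, and 2 to 4 and 5 to 10 without a library.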
